A study of Canis lupus familiaris with 8 samples.

Results

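Chemokine receptors that steer T cells into tissues, CCR4, CCR10, CXCR3 and CXCR6, were examined in canine blood T cells. They were taken by symbol from the gene list of the count tables and are 4 of the 20257 genes counted. Their identifiers were ENSCAFG00000004658 for CCR4, ENSCAFG00000024958 for CCR10, ENSCAFG00000017146 for CXCR3 and ENSCAFG00000013874 for CXCR6. All 4 were detected in all 4 dogs. The study profiled TCRαβ T cells of 4 healthy, untreated Beagle dogs, a female of 5 years (dog 1), 2 males of 7 years (dogs 2 and 3) and a male of 9 years (dog 4). Viable TCRαβ T cells were sorted from blood mononuclear cells, frozen, thawed together and run in 1 single-cell library per dog by 5' sequencing, with a matched library of T cell receptor rearrangements. Each dog was 1 replicate, and all groups compared were classes of cells within the same 4 dogs. The single female was also the youngest dog and the oldest dog stood alone, so age, sex and animal cannot be told apart.

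Chemokine receptors are G protein-coupled receptors that let a T cell follow a gradient of a secreted chemokine across a vessel wall and into a tissue. CCR4 binds CCL17 and CCL22 and CCR10 binds CCL27 and CCL28, and both are known from T cells that home to skin, with CCR4 also carried by Th2 and regulatory T cells. CXCR3 binds CXCL9, CXCL10 and CXCL11, chemokines induced by interferon, and is a hallmark of Th1 cells, while CXCR6 binds CXCL16 and is carried by effector, tissue-resident and innate-like T cells.

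The count tables held 33125 cell barcodes, of which 31909 had 500 to 20000 unique molecular identifiers (UMIs) and at most 10% mitochondrial UMIs and were kept. The median kept cell of a dog held between 3599 and 3931.5 UMIs. A cell with a CD4 UMI and no CD8A UMI was called CD4 single-positive (CD4 sp, 13247 cells), and the converse CD8A sp (6427 cells). A further 11510 cells held neither transcript (dn) and may include cells of either lineage whose transcript was missed, and 725 held both (dp). Between 81 and 113 kept barcodes were shared by any pair of libraries, at most 1.39% of the smaller library. T cell markers summed to between 3361 and 3898 UMIs per 1000000 UMIs of the class (CPM) in CD4 sp and between 3440 and 3654 CPM in CD8A sp cells. Of the B cell markers, CD79A stood at 9212 to 10533 CPM in CD4 sp and 9180 to 10481 CPM in CD8A sp cells, and the myeloid marker S100A8 at 1212 to 2918 and 884 to 1881 CPM. The remaining 22 markers of B cells, myeloid cells, platelets and red cells summed to 236 to 309 and 242 to 308 CPM, and 8 of them, PAX5 and EBF1 among them, were at 0. Most of these sums was a single gene, XBP1, at 216 to 292 and 225 to 281 CPM.

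The first comparison asked how the receptors divided between the helper and the cytotoxic lineage. CCR4 was higher and CXCR6 was lower in CD4 sp than in CD8A sp cells, whereas CCR10 and CXCR3 were higher in CPM in CD4 sp cells of every dog without passing the test that set the dogs' spread against the difference. In this comparison 14.1% of 10118 genes tested were called, 6.59% as higher and 7.51% as lower in CD4 sp cells.

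CCR4 stood at 7.94, 16.9, 14.9 and 10.7 CPM in the CD4 sp cells of dogs 1 to 4 and at 2.12, 8.99, 3.87 and 3.6 CPM in their CD8A sp cells. Every dog had more CCR4 in CD4 sp cells, although dog 1's CD4 sp value lay below dog 2's CD8A sp value. The difference was 1.40 on the log2 scale (SE 0.37, edgeR quasi-likelihood test, Benjamini-Hochberg adjusted p = 0.0325, n = 4 dogs per class).

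CCR10 stood at 2.39, 7.34, 7.86 and 5.46 CPM in CD4 sp and at 0.354, 3.76, 1.93 and 2.24 CPM in CD8A sp cells. The classes overlapped across dogs, and CD4 sp cells were higher in 4 of 4. The log2 difference was 1.37 (SE 0.46, edgeR adjusted p = 0.0847). With the dog as a block, which compares the classes within each animal, it was 1.47 (adjusted p = 0.00271), and DESeq2, which called 11.9% of genes, gave 1.41 (adjusted p = 0.0298).

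CXCR3 stood at 24.3, 67.6, 61.0 and 101 CPM in CD4 sp and at 22.6, 44.1, 34.6 and 39.3 CPM in CD8A sp cells. Its CD4 sp level varied more between dogs (63.5 ± 31.5 CPM, SD, n = 4) than its CD8A sp level (35.1 ± 9.21 CPM). Dog 1 was lowest and dog 4 highest in CD4 sp cells. The log2 difference was 0.83 (SE 0.35, edgeR adjusted p = 0.162, with the dog as a block adjusted p = 0.00495), and CD4 sp was higher in 4 of 4 dogs.

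CXCR6 ran the other way, with 4.78, 11.8, 8.92 and 17.3 CPM in CD4 sp against 34.7, 39.4, 27.4 and 16.8 CPM in CD8A sp cells. Dogs 1 to 3 had clearly less CXCR6 in CD4 sp cells, while dog 4 had nearly the same in both. The log2 difference was -1.44 (SE 0.36, edgeR adjusted p = 0.0269), and it lost its call when dog 1, dog 2 or dog 3 was left out. Likewise CCR4 lost its call without dog 3 or dog 4. These fits, like all fits that left out a dog, had no block for the dog. With the dog as a block, 27.1% of all genes were called, against which the calls of all 4 receptors in that fit are read.

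**Figure D1:**
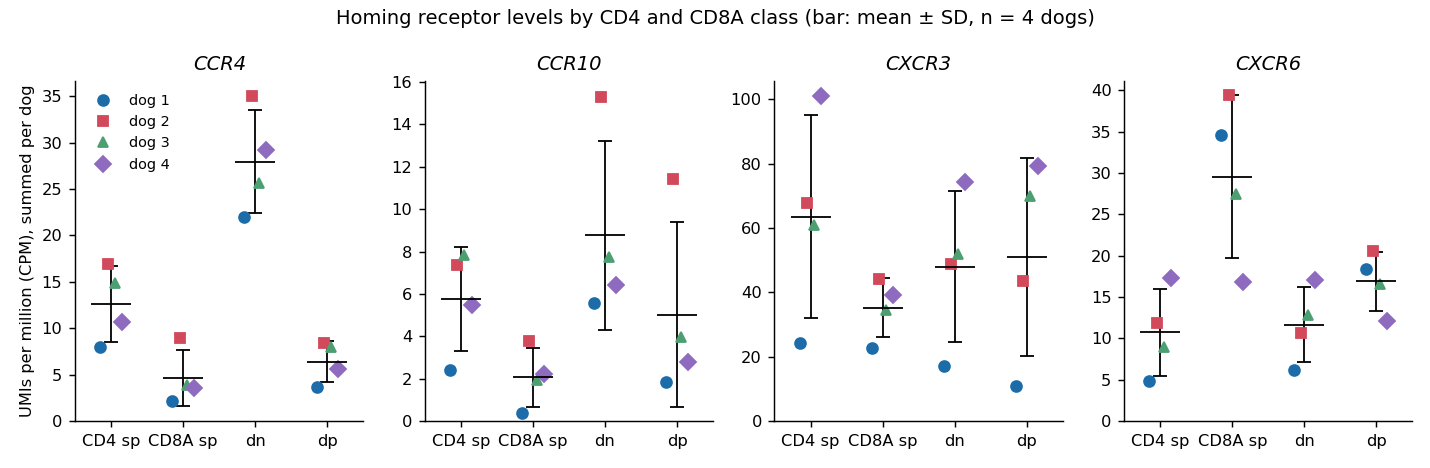
Level of each receptor in CPM (y axis) in the CD4 sp, CD8A sp, dn and dp cells (x axis), with a point for each dog and a horizontal bar with its SD for the mean of 4 dogs. CCR4 is highest in dn cells of all 4 dogs, and CXCR6 is highest in the CD8A sp cells of dogs 1 to 3.

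As transcripts, all 4 receptors were sparse, and most positive cells carried a single UMI. Among CD4 sp cells a UMI was found in 3.94 ± 1.21% of cells for CCR4, 1.68 ± 0.65% for CCR10, 18.9 ± 9.46% for CXCR3 and 3.78 ± 1.92% for CXCR6 (mean ± SD, n = 4 dogs). The shares in CD8A sp cells were 1.52 ± 0.83%, 0.69 ± 0.46%, 11.1 ± 2.28% and 9.97 ± 3.30%. Exactly 1 UMI was seen in 78.3% of the CCR4+, 73.8% of the CCR10+, 71.2% of the CXCR3+ and 84.7% of the CXCR6+ CD4 sp cells. A cell without a UMI was therefore not shown to lack the transcript. After thinning of each cell to 2000 UMIs, without the 1465 CD4 sp and 715 CD8A sp cells that held fewer, the shares in CD4 sp cells went from 3.82% to 2.0% for CCR4, from 1.72% to 0.831% for CCR10, from 19.7% to 10.0% for CXCR3 and from 3.83% to 1.83% for CXCR6. In CD8A sp cells they went from 1.66% to 0.765%, from 0.718% to 0.310%, from 12% to 5.91% and from 10.2% to 5.38%, so the mean share of each receptor kept the order of the classes at equal depth. In single dogs it did not always. In dog 1 the share for CXCR3 was 6.86% among CD4 sp cells but 8.68% among CD8A sp cells (3.61% and 4.74% after thinning), against the order in CPM, and in dog 4 the share for CXCR6 was 6.07% among CD4 sp cells but 5.82% among CD8A sp cells. No class in these samples is known to lack the receptors altogether. The lowest shares (means of 4 dogs) among cells gated by other genes served as the nearest reference for free RNA. CCR4 was found in 0.2% of FCER1G+ GZMB- CD8A sp cells and CCR10 in 0.203% of GPR25+ CD4 sp cells without GATA3 and FOXP3 UMIs. CXCR6 was found in 1.14% of CCR7+ LEF1+ CD4 sp cells and CXCR3 in 4.18% of FCER1G+ GZMB+ CD8A sp cells. The median depths of these gates lay between 3372 and 4902 UMIs in every dog. For CXCR3 a class set by T cell receptor sequence, described below, lay lower, at a mean of 1.12% of its cells.

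Cells with neither CD4 nor CD8A transcripts held the most CCR4, a comparison that was added after the levels had been seen. CCR4 stood at 22, 35, 25.6 and 29.3 CPM in the dn cells of dogs 1 to 4. Of all CCR4+ cells 59.4% were dn cells (mean of 4 dogs) although dn cells made up 36.1% of kept cells. Against CD4 sp cells the log2 difference was 1.13 (SE 0.23, edgeR adjusted p = 0.272, where 0.0587% of 10229 genes were called). It passed with the dog as a block (1.14, adjusted p = 1.51e-07, 7.61% of genes called) and with DESeq2 (adjusted p = 0.00122, 0.342% of genes called). The dn cells had fewer UMIs, with medians of 3232 to 3625 against 3747 to 4091.5 in CD4 sp cells.

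CCR10 in dn cells was 8.76 ± 4.45 CPM (SD, n = 4; log2 difference from CD4 sp 0.61, edgeR adjusted p = 1.0, with the block adjusted p = 0.0284). CXCR3 was 47.9 ± 23.6 CPM (log2 difference -0.42, with the block adjusted p = 1.5e-05) and lower than in CD4 sp cells in 4 of 4 dogs. It was not called by edgeR without the block or by DESeq2. CXCR6 was 11.6 ± 4.53 CPM, with a log2 difference of 0.11. Of all CXCR3+ cells 50.7% were CD4 sp (mean of 4 dogs, 40.4% in dog 3), while CD4 sp cells made up 41.8% of kept cells. CXCR6+ cells were divided among CD4 sp (31.0%), CD8A sp (38.7%) and dn (26.4%) cells. These classes made up 41.8%, 19.8% and 36.1% of kept cells.

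The next question was which receptors were found in the same cell. In CD4 sp cells the receptors formed a linked group of CCR4, CCR10 and CXCR6, from which CXCR3 stood partly apart. Because deeper cells show more transcripts of any kind, the joint cells expected under independence were counted within 10 strata of UMI depth in each dog, and the Mantel-Haenszel odds ratio over these strata was averaged across dogs on the log2 scale. The two-sided exact sign-flip test over 4 dogs cannot give a p below 0.125, so none of the 9 pairs tested could pass 0.05.

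CCR4 and CCR10 were found together in 8, 32, 19 and 11 CD4 sp cells of dogs 1 to 4, 70 in all against 13.8 expected. Joint detection exceeded expectation in 4 of 4 dogs, with odds ratios between 6.49 and 11.8 and a mean log2 odds ratio of 3.13 ± 0.42 (SD, n = 4, exact p = 0.125, adjusted over 9 pairs 0.188). Between 23.4% and 41.6% of the CCR10+ CD4 sp cells of a dog also held a CCR4 UMI. Cells holding more than 1 rearranged TCR β chain, as a doublet would, made up 9.26% of the joint cells with a β chain (5 of 54). They made up 7.11% of the cells with only 1 of these receptors and 2.63% to 4.59% of all CD4 sp cells of a dog. Without such cells the mean log2 odds ratio was 3.17.

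CXCR6 was linked to both skin-homing receptors. It was found with CCR4 in 72 CD4 sp cells against 26.7 expected (log2 odds ratio 2.07 ± 0.72, above in 4 of 4 dogs) and with CCR10 in 36 against 12.1 (2.04 ± 0.38, above in 4 of 4). Each of these pairs had an exact p of 0.125.

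CXCR3 and CCR10 were found together in 2, 12, 10 and 11 CD4 sp cells, 35 in all against 56.3 expected. All 4 dogs were below expectation, and the odds ratios lay between 0.49 and 0.64 (log2 -0.92 ± 0.19, exact p = 0.125, adjusted 0.188). The pair was depleted and not mutually exclusive, and without depth strata its mean log2 odds ratio was -0.33, with odds ratios from 0.71 to 0.90. CXCR3 and CCR4 shared 90 cells against 125 expected (log2 -0.54 ± 0.61, exact p = 0.25, adjusted 0.321), with dog 1 at its expectation and the other dogs below. Without depth strata this value was -0.079, with 2 dogs above and 2 below expectation. CXCR3 and CXCR6 shared 15, 45, 29 and 81 CD4 sp cells, 170 in all against 127 expected (0.90 ± 0.75, above in 4 of 4 dogs). CXCR6 was thus found more often than expected with each of the other receptors in CD4 sp cells.

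In CD8A sp cells the counts were large enough to read for CXCR3 and CXCR6. These were found together in 12, 31, 36 and 24 cells, 103 in all against 77.2 expected. The odds ratios lay between 1.43 and 1.89 (log2 0.67 ± 0.18, above in 4 of 4 dogs, exact p = 0.125, adjusted 0.188). CCR4 and CCR10 shared 9 CD8A sp cells against 1.61 expected, none of them in dog 1, which had 6 CCR4+ and 1 CCR10+ CD8A sp cells. CCR4 shared 19 cells with CXCR3 (19.6 expected) and 16 with CXCR6 (11.1 expected), and their log2 odds ratios of -0.09 ± 0.58 and 0.53 ± 1.14 were smaller than the spread between dogs. CCR10 shared 9 cells with CXCR3 (8.13 expected) and 4 with CXCR6 (4.83 expected), too few for an odds ratio in dog 1.

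**Figure D2:**
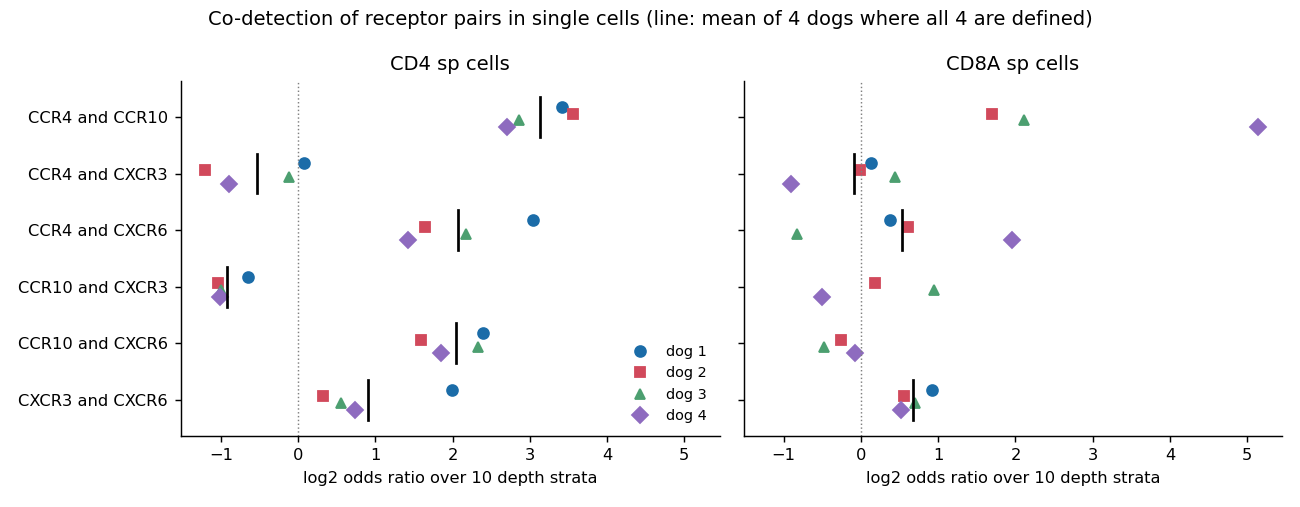
Log2 odds ratio of joint detection over 10 depth strata (x axis) for each pair of receptors (y axis) in CD4 sp (left) and CD8A sp cells (right), with a point for each dog and a line for the mean where all 4 dogs gave a value. CCR4 with CCR10 lies highest in CD4 sp cells, and CCR10 with CXCR3 lies below 0 in all 4 dogs.

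CCR4 and CXCR3 are the textbook receptors of opposite helper programs, so the 427 CCR4+ CXCR3- and the 2367 CXCR3+ CCR4- CD4 sp cells were compared directly. Medians of 4032 to 4477.5 UMIs per cell in the CCR4+ and 4457 to 4892 in the CXCR3+ cells lay near each other, with the CXCR3+ cells somewhat deeper. Of 7093 genes tested 2.92% were called, 145 (2.04%) higher and 62 (0.874%) lower in CCR4+ cells (edgeR adjusted p under 0.05), and 545 were called with the dog as a block (7.68%). Called higher in the CCR4+ cells were CCR10, CXCR6, FUT7, ITGB1 and members of the regulatory and Th2 lists, and called higher in the CXCR3+ cells were CCR9 and members of the Th1 and cytotoxic lists. The lists used for this reading were partly drawn from genes with which the study had annotated these same cells, such as IL18R1, GPR25, LGALS3 and ALDOC, so their direction is not independent evidence. The study had also used CCR4 and CXCR3 themselves in naming its regulatory and Th1 clusters.

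CCR10 stood at 28.6, 62.3, 35.6 and 30.5 CPM in the CCR4+ CXCR3- cells of dogs 1 to 4 and at 2.57, 3.31, 4.18 and 4.00 CPM in the CXCR3+ CCR4- cells. The log2 difference was 3.47 (SE 0.30, edgeR adjusted p = 1.28e-05). The CCR10 UMIs of the CCR4+ cells lie in cells that hold both receptors, so this is a second view of the co-detection above. The same holds for CXCR6. CXCR6 stood at 25.4, 35.1, 27.2 and 39.9 CPM against 17.1, 12.7, 10.9 and 19.3 CPM. It too was higher in CCR4+ cells of 4 of 4 dogs (log2 1.07, SE 0.25, adjusted p = 0.0285), but the call was lost without dog 2 or dog 3 and among cells of 2000 to 6000 UMIs (0.90, adjusted p = 0.392).

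Among 18 tested genes of adhesion and tissue retention 5 were higher and 2 lower in the CCR4+ cells (median log2 difference 0.31, against 0.00 over all genes). FUT7, a fucosyltransferase that builds the sugar ligands of skin-homing cells for selectins, had a mean of 31.7 against 5.90 CPM (log2 2.33, adjusted p = 0.000691). ITGB1, the β1 integrin chain, had 977 against 257 CPM (log2 1.90, adjusted p = 2.77e-06). The α4 integrin chain ITGA4 (log2 -1.47) and the G protein-coupled receptor GPR25 (-0.78) were lower. The call of GPR25 was lost without dog 3 or dog 4. Of 7 other chemokine receptors tested 1 was called, CCR9, the receptor for the gut chemokine CCL25, at 3.18 to 16.4 CPM in CCR4+ and 35.1 to 185 CPM in CXCR3+ cells (log2 -3.47, adjusted p = 0.00185).

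Genes of the helper lists were called on both sides. Of 10 Th1 genes tested 4 were lower in CCR4+ cells and none higher (median -0.35): the cytokine IFNG (log2 -3.78), the interleukin receptors IL12RB2 (-3.25) and IL18R1 (-1.66), and the Th1 transcription factor TBX21 (-2.19). Of 5 Th2 genes tested 2 were higher, the Th2 factor GATA3 at a mean of 230 against 100 CPM (log2 1.18, adjusted p = 2.02e-05) and LGALS3, which encodes galectin-3 (1.74). None of 4 Th17 genes was called. Of 8 regulatory genes tested 4 were higher and none lower (median 0.70), namely FOXP3, the factor that defines regulatory T cells, at 79.5 against 16.3 CPM (log2 2.40, adjusted p = 0.000182), IKZF2 (1.99), the interleukin-2 receptor chain IL2RA (1.63) and the inhibitory receptor CTLA4 (0.78). Of 7 cytotoxic genes 3 were lower, the activating receptor KLRK1 (-3.50), the chemokine CCL5 (-3.02) and the granzyme GZMK (-2.67). Of 9 naive genes tested 1 was lower, TCF7 (-0.58), a call lost whichever dog was left out. In such fits KLRK1 lost its call without dog 2 or dog 4, and GZMK and IL2RA without dog 2 or dog 3. IL12RB2 and TBX21 lost theirs without dog 2. FOXP3+ cells held 185 of the 690 CCR4 UMIs in CD4 sp cells and were not removed here. Whether the Th2 genes were higher outside FOXP3+ cells was not tested.

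The largest differences toward CCR4+ cells outside the lists were in the collagen-binding integrin chain ITGA2 (49.2 to 95.3 against 3.11 to 5.23 CPM, log2 3.86), the metalloprotease ADAM19 (3.63), CNTNAP1 (3.62) and CCDC3 (2.51). CNTNAP1 is annotated as overlapping CCR10, and since the sources used here do not say whether counting used strand, reads of these genes may not be fully separable. Likewise CXCR6 overlaps FYCO1, which did not pass in CXCR6+ CD4 sp cells (log2 0.54, adjusted p = 0.119). Leaving out each dog in turn moved the number of called genes between 73 and 224.

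**Figure D3:**
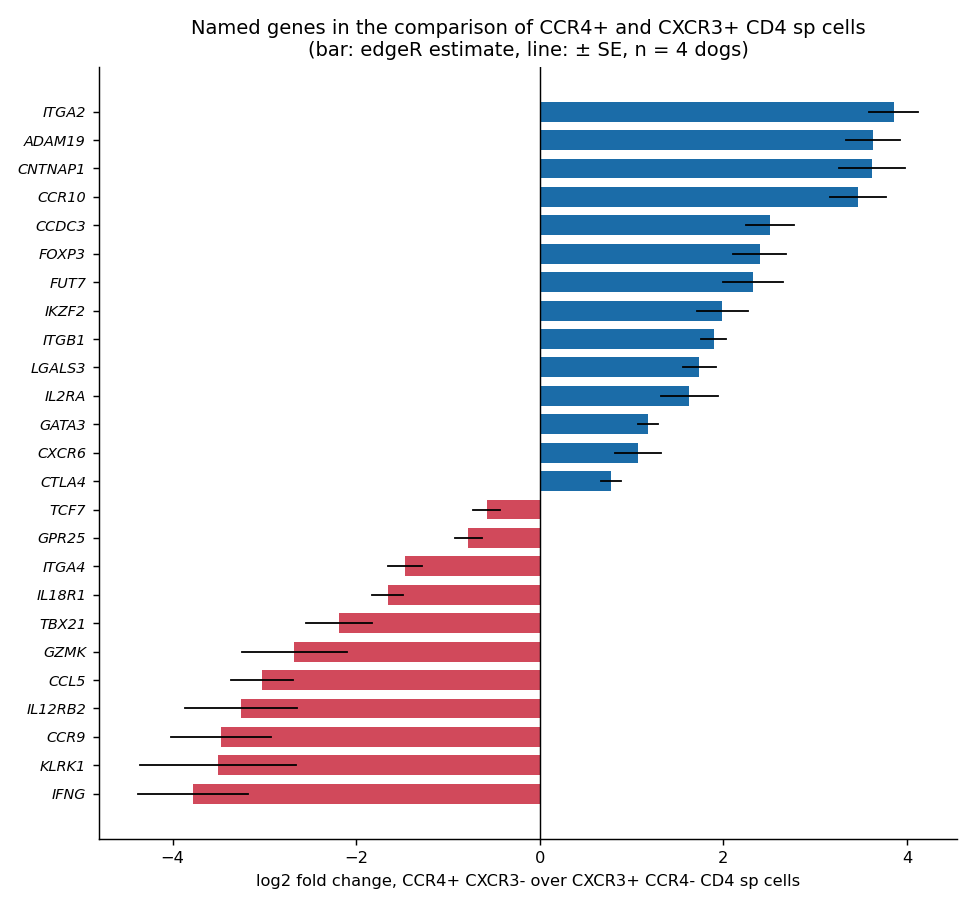
Log2 difference between CCR4+ CXCR3- and CXCR3+ CCR4- CD4 sp cells (x axis) for the called genes named in the text (y axis), as bars with a line of 1 SE to each side, from 4 dogs. CCR10, ITGB1, FUT7 and FOXP3 lie on the CCR4+ side, and IFNG, CCL5 and CCR9 lie on the CXCR3+ side.

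CCR10 marked the rarest of the cells, 218 of 13247 CD4 sp cells (32 to 77 per dog). CCR4, CXCR6, FUT7 and 5 of 11 regulatory genes were called higher in CCR10+ cells, and 3 of 10 naive genes lower. They were also deeper, with medians of 4440 to 5412 UMIs against 3744.5 to 4084 in CCR10- cells, and 5.13% to 12% of those with a β chain held more than 1 (2.59% to 4.52% in CCR10- cells). Of 9483 genes tested 7.08% were called, 373 (3.93%) higher and 298 (3.14%) lower, and 1206 (12.7%) with the dog as a block. Among cells of 2000 to 6000 UMIs 257 genes were called. Of 641 main calls that could be tested there 635 kept their sign and 217 were called again. The cells of this window are a part of the same cells, so a kept sign is not independent evidence.

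CCR4 stood at 116, 150, 78.8 and 63.3 CPM in CCR10+ CD4 sp cells and at 6.75, 13.1, 12.7 and 9.56 CPM in CCR10- cells. The log2 difference was 3.23 (SE 0.29, edgeR adjusted p = 5.72e-05). This comparison, like those of CXCR6 and CXCR3 that follow, rests on the joint cells counted in the co-detection above and is a second view of it. CXCR6 stood at 25.8, 43.9, 34.1 and 42.2 CPM against 4.54, 10.9, 8.04 and 16.8 CPM (log2 1.86, SE 0.42, adjusted p = 0.0189). It was higher in 4 of 4 dogs but not called without dog 2 or dog 3. CXCR3 stood at 12.9, 34.7, 44.6 and 45.7 CPM against 24.4, 68.6, 61.6 and 102 CPM, lower in 4 of 4 dogs (log2 -0.83, adjusted p = 0.366). Within dogs the difference passed, at -0.91 with the dog as a block (adjusted p = 0.00117).

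Of 11 regulatory genes tested 5 were higher in CCR10+ cells and none lower (median log2 difference 0.91, against -0.07 over all genes). FOXP3 stood at 64.5 to 153 against 8.73 to 23.7 CPM (log2 2.81, adjusted p = 0.000336), and IL10, an anti-inflammatory cytokine, had a mean of 15.4 against 2.0 CPM (2.92). IKZF2 differed by 2.85 and IL2RA by 2.02. Of 10 naive genes 3 were lower (median -1.02), the lymph node homing receptor CCR7 (log2 -1.80), the transcription factor TCF7 (-1.78) and the interleukin-7 receptor IL7R (-1.09). The call of CCR7 was lost without dog 2.

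Homing and adhesion genes moved in both directions. FUT7 stood at 42.2 to 84.0 against 3.27 to 8.21 CPM (log2 3.37) and ITGB1 at 916 to 1340 against 158 to 327 CPM (2.14), while GPR25 (-2.45) and ITGA4 (-2.07) were lower, among 6 higher and 3 lower of 19 tested. GPR15, a homing receptor of T cells for colon and skin, was higher (1.64, adjusted p = 0.0102). Both GATA3 (1.04) and LGALS3 (2.15) were higher among 5 Th2 genes. IL18R1 was lower (-1.95) as the single call among 10 Th1 genes. CCL5 was lower (-3.23) and CST7, a protease inhibitor of cytotoxic granules, higher (1.57) among 10 cytotoxic genes. Of 7 checkpoint genes CTLA4 (1.06) and TOX (0.71) were higher. The calls of CCL5, CST7 and TOX were lost without dog 2 or dog 3. GPR15 lost its call without dog 2 or dog 4, and IL18R1 without dog 3.

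The largest differences toward CCR10+ cells included YAP1, a transcriptional co-activator (log2 4.19), CENPF (3.89) and ASPM (3.83), both genes of dividing cells, and CNTNAP1 (3.81), which overlaps CCR10 as noted. Toward CCR10- cells they included CNKSR3 (-2.67), CDCA7L (-2.22) and KRT18 (-2.08). Markers of other cells also differed. S100A8 stood at 4123 to 5935 against 1179 to 2875 CPM (log2 1.17, adjusted p = 0.00596), and the B cell genes MS4A1 (0 to 26.3 against 0.527 to 2.10 CPM, log2 3.38) and CD79B (3.87) were higher, while CD79A was lower (6210 to 6610 against 9267 to 10577 CPM, -0.68). MS4A1 rested on 102 and CD79B on 22 UMIs in both groups together. The calls of S100A8, CNKSR3 and CDCA7L were lost without dog 2 or dog 3, and that of CD79B without dog 2, dog 3 or dog 4. The 22 markers other than CD79A and S100A8 summed to 199 to 310 and 236 to 309 CPM in the groups, and 9 of them were at 0. Most of these sums was XBP1, at 148 to 292 and 217 to 292 CPM, so they say little about the other markers. The part of these markers and of depth in the CCR10 results was not tested.

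CXCR6+ CD4 sp cells (497, 55 to 197 per dog) had higher levels of CCR4 and CCR10, with a CCR4 UMI in 72 and a CCR10 UMI in 36 of them, and 6 of 11 regulatory genes higher and 4 of 10 naive genes lower than CXCR6- cells. Of 9550 genes tested 5.01% were called, 279 (2.92%) higher and 199 (2.08%) lower, and 1126 (11.8%) with a block for the dog. That number fell to 17 without dog 3 and to 70 without dog 2, in unpaired fits with fewer dogs. Genes with an unadjusted edgeR p under 0.05 went from 2048 to 1516 and 1607 in these fits. Reliance on single animals and loss of power were not told apart. Their depth, at medians of 4221 to 5203 UMIs, was above the 3744 to 4085 of CXCR6- cells.

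CCR4 stood at 45.3, 69.9, 55.6 and 25 CPM in CXCR6+ cells of dogs 1 to 4 and at 7.23, 14.0, 12.8 and 9.70 CPM in CXCR6- cells (log2 2.10, SE 0.31, edgeR adjusted p = 0.00514). CCR10 stood at 15.1, 24.5, 48.4 and 25 against 2.15, 6.39, 5.76 and 4.10 CPM (log2 2.61, SE 0.40, adjusted p = 0.00657). Both calls were lost without dog 3. These comparisons, and that of CXCR3, are second views of the co-detection above. CXCR3 stood at 102, 89.5, 78.9 and 127 against 22.8, 66.4, 60.1 and 99.3 CPM, higher in 4 of 4 dogs (log2 0.64, adjusted p = 0.337, with the block 0.54, adjusted p = 0.0208).

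Of 10 naive genes tested 4 were lower in CXCR6+ CD4 sp cells (median -1.38, against -0.02 over all genes): CCR7 (log2 -2.47), the transcription factors LEF1 (-2.22) and TCF7 (-1.70), and the chromatin organiser SATB1 (-1.19). The regulatory genes that were higher included IL10 at 12.3 to 18.9 against 1.43 to 1.95 CPM (log2 3.07, adjusted p = 0.00139), IKZF2 (2.09), FOXP3 (1.81) and IL2RB (1.32). All 6 called adhesion genes of 19 tested were higher, with ITGB1 (1.79), FUT7 (1.83), S1PR4 (0.77) and PRDM1, a factor of effector and tissue-resident T cells (1.29). CCR2, a receptor for inflammatory chemokines, was higher (1.59), as were the checkpoint receptor HAVCR2 (2.43), CTLA4 (0.80), TOX (0.68), the interleukin-23 receptor IL23R (2.81) and the division genes RRM2 (2.57) and MKI67 (2.44). The calls of IL23R, FUT7 and S1PR4 were lost whichever dog was left out. Of the called genes named here, only CCR7, TCF7, IL10, ITGB1 and MKI67 kept their call in every such fit. None of 11 Th1 genes was called (median 0.40), and 2 of 10 cytotoxic genes were higher. S100A8 was higher here too (3756 to 4984 against 1154 to 2858 CPM, log2 0.92, adjusted p = 0.0312) and CD79A lower (7299 to 8019 against 9328 to 10594 CPM, log2 -0.45, adjusted p = 0.0214), and the 22 other markers summed to 209.9 to 323 and 235 to 308 CPM, with 9 at 0. Most of those sums was again XBP1, at 178 to 302 and 216 to 292 CPM. The part of these markers was not tested.

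In CD8A sp cells CXCR3 and CXCR6 were compared in the same way. CXCR3+ CD8A sp cells (727, 60 to 234 per dog) had 6 of 12 cytotoxic genes lower than CXCR3- cells and none higher, although the summed cytotoxic level overlapped (3348 to 9990 against 6485 to 8596 CPM). Of 8263 genes tested 2.71% were called, 122 (1.48%) higher and 102 (1.23%) lower, and 799 (9.67%) with the dog as a block. The CXCR3+ cells were deeper, with medians of 4953 to 5370 against 3475.5 to 3846 UMIs. Among cells of 2000 to 6000 UMIs only 29 genes were called, although 172 of 181 main calls tested there had the same sign. Of those 181 main calls 27 were called again.

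CXCR6 stood at 38.4, 37.8, 35.4 and 24.3 CPM in CXCR3+ and at 34.1, 39.7, 26.1 and 15.3 CPM in CXCR3- CD8A sp cells (log2 0.20, SE 0.30, edgeR adjusted p = 0.834). Dogs 1, 3 and 4 were higher and dog 2 lower, and no difference was detectable. The cytotoxic genes that were lower (list median -1.14) included the granzymes GZMA (20.9 to 60.05 against 190 to 442 CPM, log2 -2.81, adjusted p = 0.00319) and GZMB (-1.52), the pore-forming PRF1 (-1.46) and ZEB2 (-1.64). Of 11 Th1 genes 3 were lower, IL12RB2 (-1.25), TBX21 (-1.19) and EOMES (-1.10). The egress receptor S1PR5 (-2.29), the αM integrin chain ITGAM (-2.41) and NCR3 (-1.47), an activating receptor of natural killer cells, were lower. LEF1 (-1.49) and KLF3 (-1.0) were lower among 9 naive genes. CCR9 was higher at 47.2 to 116 against 26.9 to 46.7 CPM (1.31, adjusted p = 0.00868), and MKI67 (2.66), RRM2 (2.82) and the histone gene H1-5 (3.17) were among the largest increases. Of the called genes named here, only GZMA, GZMB, MKI67, RRM2 and H1-5 kept their call whichever dog was left out. EOMES and ZEB2 lost it in every such fit, and TBX21 lost it without dog 2, dog 3 or dog 4.

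CXCR6+ CD8A sp cells (590, 84 to 202 per dog) gave no call among 8033 genes with edgeR (0.00%), where 620 genes had an unadjusted p under 0.05. DESeq2 called 23 genes (0.170%), and 191 (2.38%) were called with the dog as a block. CXCR3 stood at 34.6, 63.0, 49.9 and 68.3 CPM in CXCR6+ and at 20.8, 41.4, 32.7 and 37.2 CPM in CXCR6- CD8A sp cells, higher in 4 of 4 dogs (log2 0.67, SE 0.22, edgeR adjusted p = 0.478, with the block adjusted p = 0.00998). This difference in CXCR3 is a second view of its co-detection with CXCR6 above. CCR4 and CCR10 were too sparse in CD8A sp cells for a comparison of this kind.

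The receptors were then placed among cells gated by other genes, as levels with no test, since these gates overlap and share the cells above. In these same cells the study had listed CCR4 with FOXP3 for its regulatory cluster and CXCR3 for its Th1 cluster. It had also found CCR9 among the top genes of that Th1 cluster. The pairings of CCR4 with FOXP3 and of CXCR3 with CCR9 are therefore not independent evidence. FOXP3+ CD4 sp cells (622) held CCR4 at 48.9, 74.4, 49.8 and 42.7 CPM in dogs 1 to 4 (mean of the remaining CD4 sp cells 9.89) and CCR10 at 15.6, 52.8, 33.6 and 41.3 CPM (3.67). CXCR6 stood at 19.5, 31.1, 27.5 and 34.7 CPM (9.53). These 3 receptors were higher in FOXP3+ cells of 4 of 4 dogs, a pattern found in 13.3% of genes, and CXCR3 was higher in 2 of 4. The dn FOXP3+ cells (538) matched this, with CCR4 at 70.8 ± 16.8 against 25.1 CPM, CCR10 at 41.3 ± 16.6 against 6.51 CPM and CXCR6 at 26.4 ± 7.03 against 10.6 CPM (higher in 4 of 4 dogs, as were 12.3% of genes). GATA3+ FOXP3- CD4 sp cells (3894) held CCR4 at 16.3 ± 5.27 against 10.8 CPM in the rest, higher in 4 of 4 dogs (11.8% of genes). Their CCR10 was 5.91 against 5.72 CPM, but this rest included the FOXP3+ cells. Of the 311 CCR10 UMIs in CD4 sp cells, FOXP3+ cells held 128 and GATA3+ FOXP3- cells 107. A rest without FOXP3+ cells was not measured for either receptor.

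CXCR3 led in other gates. CCR9+ CD4 sp cells (2031) held CXCR3 at 117 ± 18.9 against 52.4 CPM (higher in 4 of 4 dogs, 16.1% of genes) and CCR4 at 3.09 ± 0.47 against 15.2 CPM (lower in 4 of 4, 14.3% of genes). KLRK1+ CD4 sp cells (1165, of which 26 in dog 1) held CXCR3 at 109 ± 13.6 against 58.7 CPM and CXCR6 at 18.3 ± 3.43 against 10.1 CPM, both in 4 of 4 dogs (9.77% of genes). MKI67+ CD4 sp cells (344) held more of all 4 receptors in 4 of 4 dogs (19.2% of genes), with CCR10 at 31.1 ± 21.6 against 4.72 CPM. CCR7+ LEF1+ CD4 sp cells (4204), which carry the genes of naive cells, held less of all 4 in 4 of 4 dogs (24.1% of genes), with CXCR6 at 2.72 ± 1.74 against 14.3 CPM. PDCD1+ CD4 sp cells (568) held CCR4 at 22.7 ± 8.86 against 12 CPM, CCR10 at 13.1 ± 7.92 against 5.30 CPM and CXCR3 at 101 ± 20.2 against 61.7 CPM, higher in 4 of 4 dogs (15.1% of genes), while CXCR6 was higher in 3 of 4. GPR25+ CD4 sp cells without GATA3 and FOXP3 (982) held CCR10 in 2 UMIs in all (0.52 against 6.16 CPM, lower in 4 of 4 dogs, 10.2% of genes).

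Among CD8A sp cells, those with a GATA3 UMI (1382) held the most CCR4, at 10.7 ± 4.74 against 2.51 CPM, and CCR10 at 4.58 ± 2.52 against 1.17 CPM, both higher in 4 of 4 dogs (10.7% of genes). FCER1G+ GZMB+ CD8A sp cells (982) were low in CXCR3 in 4 of 4 dogs (14.7 ± 7.19 against 39.0 CPM, 11.9% of genes), and their CXCR6 was 50.9, 65.8, 72.3 and 7.72 CPM in dogs 1 to 4. Dog 4 stood far below the other dogs. MKI67+ CD8A sp cells (154) held more CXCR3 (74.1 ± 30.5 against 33.2 CPM) and more CXCR6 (44.4 ± 10.5 against 28.7 CPM) in 4 of 4 dogs (17.2% of genes). CXCR6 was 3.70 ± 2.24 against 33.2 CPM in CCR7+ LEF1+ cells and 5.80 ± 2.85 against 33.0 CPM in TOX+ TCF7+ FCER1G- cells.

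**Figure D4:**
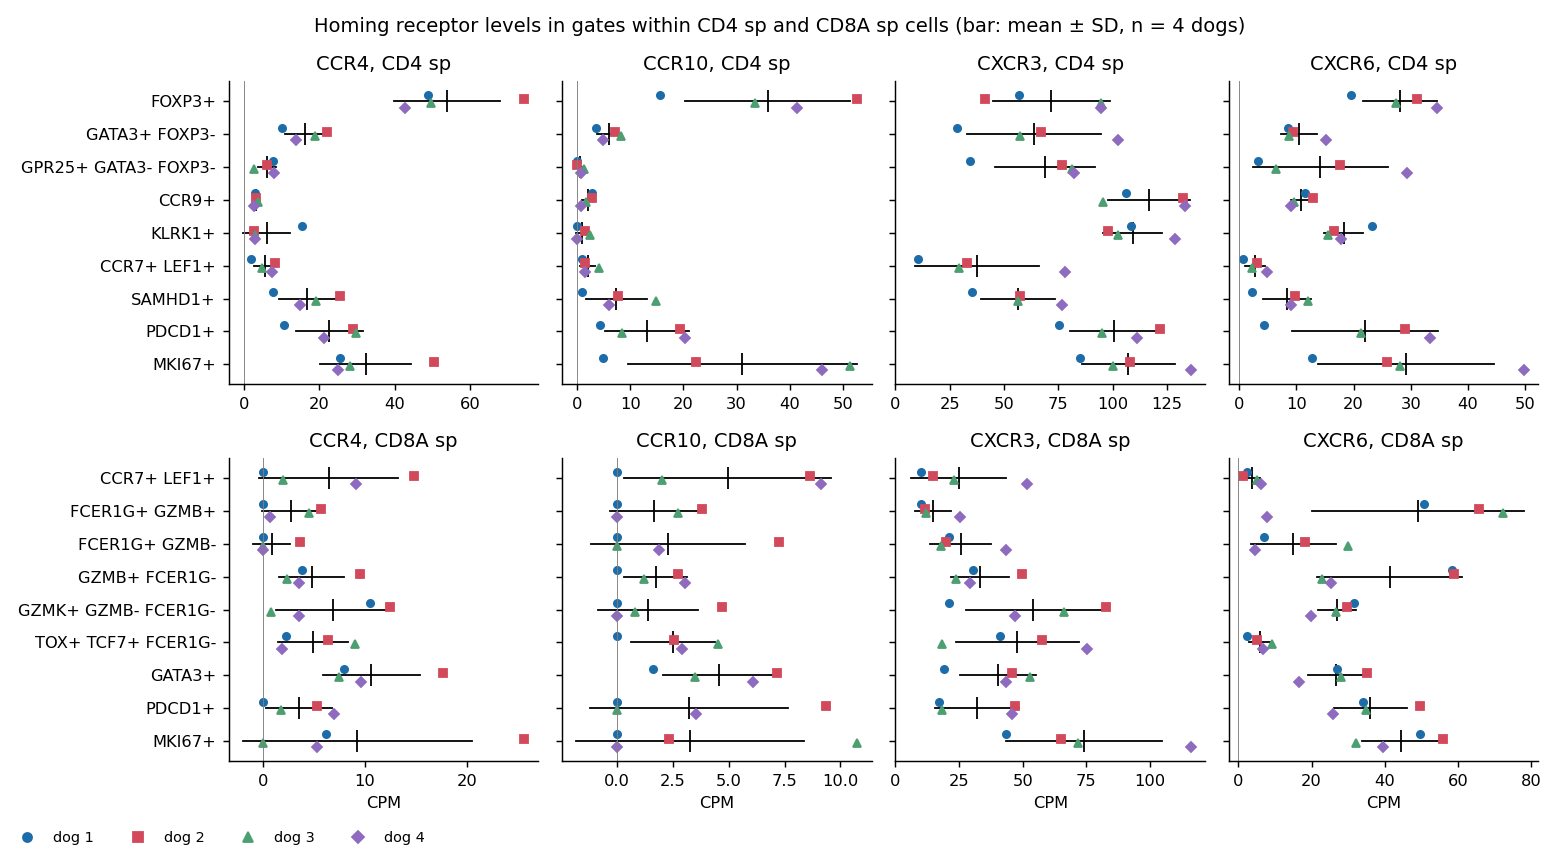
Level of each receptor in CPM (x axis) in cells gated by other genes (y axis) within CD4 sp (top) and CD8A sp cells (bottom), with a point for each dog and a bar for the mean ± SD of 4 dogs. FOXP3+ cells lead for CCR4 and CCR10 among the CD4 sp gates, and CCR9+ cells lead for CXCR3.

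The matched T cell receptor sequences set a class of cells by rearrangement, within the gate on CD4 and CD8A UMIs. The study had used CXCR6 to annotate an innate-like cluster of these same cells, in which it found the rearrangement below to dominate. The level of CXCR6 in this class is therefore not independent evidence. A rearrangement, TRAV9-11 joined to TRAJ28, was found in 153, 181, 244 and 97 CD8A sp cells of dogs 1 to 4. The most common α chain junction of each dog is shown because the junctions had 1 length in 97.9% to 99.4% of these cells and the same ends, with the capitals marking the 8 bases at which the 4 sequences vary.
Dog 1: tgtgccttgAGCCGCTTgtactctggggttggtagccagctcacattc
Dog 2: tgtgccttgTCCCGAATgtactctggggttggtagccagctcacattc
Dog 3: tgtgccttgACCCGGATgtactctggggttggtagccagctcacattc
Dog 4: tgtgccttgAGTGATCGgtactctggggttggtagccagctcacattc
They were carried by 35, 11, 102 and 28 cells, of which 14, 1, 29 and 12 had a CXCR6 UMI. In all, the dogs had 49, 123, 78 and 30 different junctions in this class.

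CXCR6 stood at 79.3, 79.8, 86.3 and 69.3 CPM in TRAV9-11/TRAJ28 cells and at 21.9, 32.2, 21.0 and 12.8 CPM in the other CD8A sp cells with an α chain. All 4 dogs were higher and their values lay close together (log2 1.89, SE 0.25, edgeR adjusted p = 0.000928), in a comparison where 4.45% of 7455 genes were called. A CXCR6 UMI was found in 158 of 675 cells (23.4%, exact 95% interval 20.3% to 26.8%, counting error only) against 7.60% of the others. CXCR3 showed the opposite, at 3.61, 2.90, 7.29 and 0 CPM against 29.8, 53.5, 39.5 and 46.1 CPM (log2 -3.37, SE 0.38, adjusted p = 0.000251). Its UMIs were seen in 9 of 675 cells (1.33%) against 14.2%. CCR4 was seen in 2 (0.296%, others 1.62%) and CCR10 in 3 of these cells (0.444%, others 0.770%), below the filter on low counts. The TRAV9-11/TRAJ28 cells were shallower, with medians of 3299 to 3698 against 3895 to 4286 UMIs.

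Clone size was compared last. A clone was a set of cells of 1 dog with the same single α and single β chain, and was called expanded from 2 cells upward. CXCR3 was higher in expanded than in singleton CD4 sp cells, at 98.2, 120, 110 and 141 against 25.5, 50.5, 50.4 and 77.3 CPM. The log2 difference was 1.25 (SE 0.25, edgeR adjusted p = 0.0152, where 5.75% of 9176 genes were called), and the call was lost without dog 2 or dog 3. The number of called genes, 528, was 9 without dog 2 and 113 without dog 3. In dogs 1 to 4, 12.3%, 53.6%, 44.3% and 63.3% of the CXCR3+ CD4 sp cells with both chains lay in expanded clones, against 3.56%, 30.4%, 24.1% and 48.9% of all such CD4 sp cells. The CXCR3+ cells of dog 4 came from 354 clones, 29 of them from 1 clone of 68 cells.

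CCR4 differed in its direction between dogs, at 20.3, 10.3, 6.50 and 3.17 CPM in expanded and 6.44, 16.4, 19.0 and 15.9 CPM in singleton CD4 sp cells. Dogs 2 to 4 had less CCR4 in expanded clones and dog 1, with 66 expanded CD4 sp cells, had more. The log2 difference was -1.03 (edgeR adjusted p = 0.209, with the block -1.22, adjusted p = 0.0249, 13.3% of genes called), and without dog 1 it was -1.46 (adjusted p = 0.039). CCR4+ CD4 sp cells with both chains rarely shared a clone with each other, with 37, 79, 70 and 64 cells from 37, 77, 69 and 64 clones, and 10.8%, 16.5%, 11.4% and 20.3% of them lay in expanded clones. The log2 differences of CCR10 (-0.88, adjusted p = 0.364) and CXCR6 (0.37, adjusted p = 0.506) did not pass.

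In CD8A sp cells the difference by clone size was not detected for CXCR3 (log2 0.05, edgeR adjusted p = 0.983) or CXCR6 (0.23, adjusted p = 0.906), with 0.700% of 8002 genes called. The change of CXCR3 with expansion was smaller in CD8A sp than in CD4 sp cells by -1.20 on the log2 scale (unadjusted p = 0.00612 in the edgeR interaction test), which did not pass after adjustment over 9018 genes (adjusted p = 0.516). CCR4 stood at 1.04, 4.74, 1.79 and 1.27 CPM in expanded and 2.22, 9.07, 5.38 and 8.38 CPM in singleton CD8A sp cells, lower in 4 of 4 dogs, but was below the filter. The 63, 116, 134 and 69 CXCR6+ CD8A sp cells with both chains came from 31, 92, 80 and 52 clones. A single clone held 14 of them in dog 1, 8 in dog 2, 29 in dog 3 and 12 in dog 4, in clones of 34, 37, 100 and 28 cells.

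**Figure D5:**
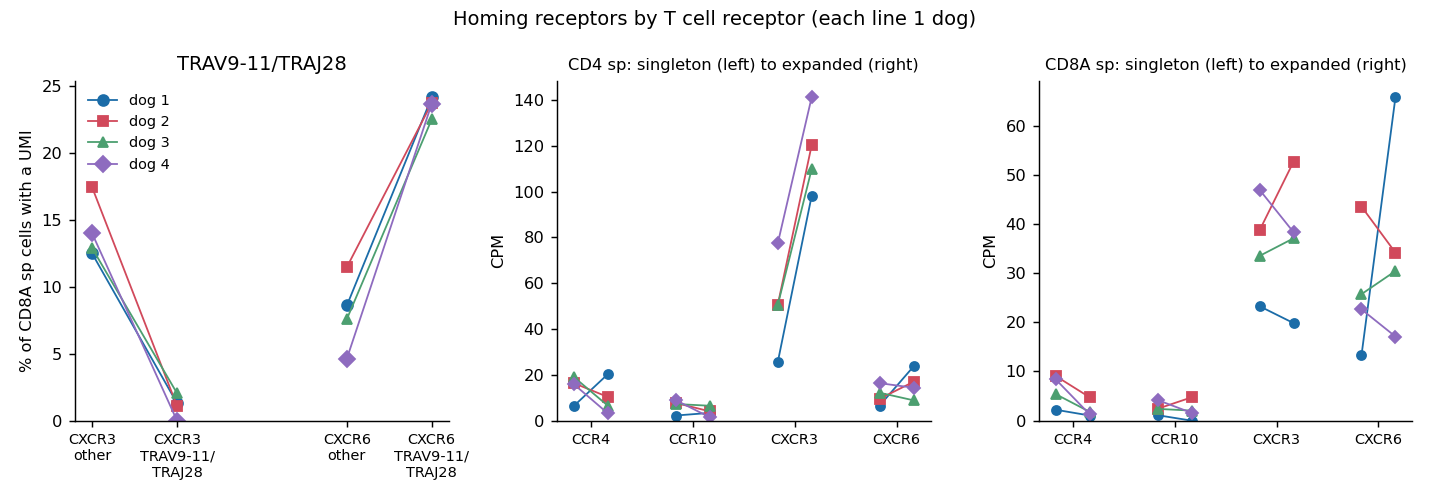
Share of CD8A sp cells with a CXCR3 or CXCR6 UMI in percent (y axis, left) among the TRAV9-11/TRAJ28 and the other cells, and level of each receptor in CPM (y axis, middle CD4 sp, right CD8A sp) in singleton and expanded cells, with a line for each dog. CXCR3 falls and CXCR6 climbs in the TRAV9-11/TRAJ28 cells of all 4 dogs, and CXCR3 climbs in the expanded CD4 sp cells of all 4.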

How the data were processed

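Per the study's methods and the submitters' processing notes, the authors aligned reads to CanFam 3.1 with Cell Ranger 5.0.1 and deposited UMI counts by gene and barcode, unfiltered beyond cell calling, with assembled productive TCR rearrangements. Dog 1's gene list did not match its table and was not used; the list of dogs 2 to 4 named its rows. Columns without a sample numbered 0.

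Cells with 500 to 20000 UMIs and at most 10% mitochondrial UMIs were kept, giving 7096, 8454, 8109 and 8250 cells in dogs 1 to 4. Doublets were not called, and cells with more than 1 β chain were left out in an alternative. A cell was positive for a gene from 1 UMI. CPM are UMIs of a gene per 1000000 UMIs of a class.

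UMIs were summed per dog and class, and classes with at least 10 cells in every dog were tested with edgeR 4.0.16 (TMM, filterByExpr, quasi-likelihood, R 4.3.3), without a block, with Benjamini-Hochberg adjustment over all genes. Changes were called at an adjusted p under 0.05. DESeq2 1.42.0, a dog block, no filter, a window of 2000 to 6000 UMIs, a gate of 2 UMIs and leaving out each dog were alternatives. The classes came from the same animals, and same-dog deviations correlated at 0.15 to 0.81, so the dog pairs them. Only the fit with the dog block used this pairing. The fits that left out a dog did not, so a lost call there refers to the unpaired test with fewer dogs. Scripts were tested on simulated data (Python 3.11.15, numpy 2.4.6, scipy 1.17.1, pandas 2.3.3).

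Genes to name were drawn from the 4 receptors and up to 4 called genes per list with 1 sign in all dogs. Also drawn were the 5 largest changes per direction at a mean of at least 20 CPM. Not all genes drawn by this rule are given in the text. The counts of values of named genes under other settings cover all of them. Receptors and gene lists were chosen with earlier results of these data known. Overlaps between genes and chromosomes came from a RefSeq table of another assembly, so no coordinates are given. A gene that met this rule is not reported here.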

Additional observations from a re-analysis of the deposited data

Results flagged for a closer look

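In 21 sets of 4 dogs examined for a dog set apart from the others, of which chance alone sets apart about 1 in 20, a single one stood out. The log2 odds ratio of finding CCR10 and CXCR3 in the same CD4 sp cell was -0.64 in dog 1, which had 2 such cells, against -0.997 for the nearest and -1.03 for the farthest of the other dogs. All 4 values were below 0.

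CCR10 and CXCR6 were found together in 36 CD4 sp cells against 12.1 expected, above expectation in 4 of 4 dogs, and in 4 CD8A sp cells against 4.83 expected, below it in 4 of 4 dogs. The difference between the lineages was not tested, and with 48 CCR10+ CD8A sp cells in all it rests on few cells.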

How the results depend on the processing

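Of 151 values of the main results under other settings, 123 were counted as unchanged. For the receptor fits this meant the same direction and side of the threshold. For joint detection it meant the same direction alone, and for numbers of called genes a change of at most 1.5-fold. With the dog as a replicate block, calls were gained for CCR10 (1.47, also 1.41 with DESeq2) and CXCR3 (0.83) between CD4 sp and CD8A sp cells, for CCR4 in expanded CD4 sp clones (-1.22), and for CCR4 (1.14, with DESeq2 1.13), CCR10 (0.61) and CXCR3 (-0.42) in dn against CD4 sp cells. The block changed the number of called genes to 545 between CCR4+ and CXCR3+, 1206 for CCR10+, 1126 for CXCR6+ CD4 sp, 799 for CXCR3+ CD8A sp and 191 for CXCR6+ CD8A sp cells. It lost no call of a receptor. Among cells of 2000 to 6000 UMIs, with fewer cells, the numbers in the same order were 99, 257, 289, 29 and 3. DESeq2 called 777, 339 and 23 genes in the last 3, no filter on low counts 390 in the first and 17 in the last, and leaving out cells with more than 1 β chain 1 in the last.

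Reversed were CCR10 in expanded CD4 sp clones in the depth window (0.39) and CCR4 with CXCR3 in CD8A sp cells without depth strata (0.85), without cells of more than 1 β chain (0.038) and with 2 UMIs for the gate (0.38). The causes were not tested.

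Leaving out each dog, CD4 sp against CD8A sp gave 1.21 to 1.74 for CCR4, 1.12 to 1.60 for CCR10, 0.58 to 0.97 for CXCR3 and -1.96 to -1.12 for CXCR6. CCR10 and CXCR3 passed without dog 1. In expanded clones CCR4 ran from -1.46 to -0.52 and CXCR3 from 1.06 to 1.40 in CD4 sp cells. In CD8A sp cells CXCR3 ran from -0.092 (without dog 2) to 0.18 and CXCR6 from -0.24 (without dog 1) to 0.59. CXCR6 in dn against CD4 sp cells ran from -0.019 (without dog 3) to 0.20, and CCR4 with CXCR3 in CD8A sp cells from -0.26 (without dog 3) to 0.18 (without dog 4). Called genes ran from 73 to 224 between CCR4+ and CXCR3+, 152 to 722 for CCR10+, 17 to 287 for CXCR6+ CD4 sp, 38 to 106 for CXCR3+ CD8A sp and 0 to 5 for CXCR6+ CD8A sp cells. Beside these reversals, no gene named between receptor-positive classes changed its sign; 40 of 668 of their values lost the call under other settings and 132 of 455 without a dog. The calls in expanded CD4 sp clones ran from 9 to 475 genes.

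Most positive cells held 1 UMI, and a cell without one was not shown to lack the receptor. The 4 dogs cannot pass an exact test of joint detection. Deeper cells were more often positive, and how much of the receptor-positive profiles rests on depth was not tested beyond the window.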

Other observations

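The ligands of the receptors were sparse in these T cells. Of 8 ligand genes listed 7 were in the count tables, and in the CCR4+ CXCR3- and CXCR3+ CCR4- CD4 sp cells they summed to 3.18 to 16.4 and 5.44 to 32.5 CPM. CCL17, CCL22, CCL28 and CXCL11 were at 0 in both classes. The rare cells with both CD4 and CD8A transcripts (dp, 725 in all, 89 to 252 per dog) held CCR4 at 6.40 ± 2.19, CCR10 at 5.01 ± 4.37, CXCR3 at 51.0 ± 30.7 and CXCR6 at 16.9 ± 3.57 CPM (mean ± SD, n = 4 dogs). Their mean CXCR6 level lay between those of CD4 sp and CD8A sp cells, but in dog 4 it was 12.1 CPM, below both. More than 1 β chain was found in 15.9% to 25.7% of dp cells with a β chain, against 1.88% to 6.89% in the single-positive classes, and the part of such cells in these levels was not tested.

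In the TRAV9-11/TRAJ28 CD8A sp cells, 7 of 12 cytotoxic genes tested were higher and none lower than in the other CD8A sp cells (median log2 difference 0.96, against 0.00 over all genes), as were 5 of 11 Th1 genes with 1 lower (median 0.76). Over all 7455 genes tested 2.45% were called higher. The study had already described high cytotoxic potential in the cluster where this rearrangement dominates, so the direction of the cytotoxic list is not independent evidence. CXCR3, usually read with Th1 genes, was lower in the TRAV9-11/TRAJ28 cells by the values given above.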
